A study of Mus musculus with 2 samples.

Results

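Heat shock proteins and DnaJ co-chaperones were described in total RNA of mouse hippocampus. The members were all genes with a protein-coding transcript whose symbol marks an Hsp70 or Hsp110 protein (Hspa, Hsph1), an Hsp90 protein (Hsp90), the mitochondrial Hsp60 and Hsp10 pair (Hspd1, Hspe1), a small heat shock protein (Hspb) or a DnaJ protein of class A, B or C (Dnaja, Dnajb, Dnajc). This rule found 72 members among 55536 genes, of which 22028 were protein-coding. It used symbols and no measured value. Chaperones with other symbols, such as Cryab, Trap1, Hyou1 and Sec63, were not members and were described only as part of the wider pathway.

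The RNA came from male B6CASTF1/J mice (F1 hybrids of C57BL/6J and CAST/EiJ) aged 2 months. The tissue label names a layer of the hippocampus and not which layer. The data were 2 libraries, replicate 2 and replicate 1, which formed 1 group, with no treatment named. Their biological replicate numbers are the only sign of separate animals, since both carry 1 donor label for the strain, so the spread between them may be partly technical. The question the design allowed was therefore how high each member was and how far the libraries stood apart, and no test between conditions was possible.

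Expected counts summed to 31303010 for replicate 2 and 31422827 for replicate 1. The libraries differed by more than sampling noise (chi-square per degree of freedom 4.09 over 20087 degrees of freedom), so they were not 1 library deposited again. The summed TPM (transcript abundance per length, scaled to a fixed sum per library) of 6 neuron markers was 2087 in replicate 2 and 2144 in replicate 1, and that of 6 astrocyte markers was 793 and 826 TPM in the same order. Of 6 choroid plexus and ependyma markers, 2 were detected. Because the tissue was measured in bulk, fewer cells of a type and less RNA per cell cannot be told apart in any level below.

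Chaperones of the Hsp70 and Hsp90 families bind unfolded or unstable proteins in cycles driven by ATP, and DnaJ proteins deliver substrates to Hsp70 and start its ATP hydrolysis. In stressed cells the transcription factor Hsf1 binds heat shock elements in promoters of the inducible members, while their constitutive relatives serve folding in unstressed cells. The endoplasmic reticulum has its own set, which the unfolded protein response raises. In neurons, Hsc70 (Hspa8) works with the DnaJ proteins auxilin (Dnajc6) and CSPα (Dnajc5) at the presynaptic terminal.

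Promoter sequences from RefSeq on GRCm38.p6, each from 250 bases before to 50 bases after an annotated start, were matched by symbol for 58 of the 72 members. Of the 75 windows of these members, 48 had a start that also lay in the first bases of a GENCODE M21 transcript. This did not hold for the windows printed below for Dnajb6, Hspd1, Hspa5, Hsp90b1 and Dnajc3. The windows printed for some members hold elements known as binding sites in the heat shock response and the unfolded protein response. Dnajc11, Dnajc12, Dnajc18, Dnajc2, Dnajc22, Dnajc30, Dnajc5, Dnajc5b, Hsp90aa1, Hsp90ab1, Hspa13, Hspa8, Hspa9 and Hspb2 were not matched. The heat shock element was searched on both strands as 3 alternating units, GAA, TTC and GAA, each parted from the next by any 2 bases. It was found in promoters of 4 of the 58 members, which is 6.90%, and in 0.603% of all 32851 promoters, or 0.662% of 27025 genes. These members were Hspd1, Hspe1, Dnajb6 and Hsph1. In the windows below capitals mark the element, each window is read 5′ to 3′ on the strand of its gene, and the annotated start base is position 0.
Hspe1: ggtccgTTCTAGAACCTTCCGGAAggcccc
Hspd1: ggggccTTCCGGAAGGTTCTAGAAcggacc
Dnajb6: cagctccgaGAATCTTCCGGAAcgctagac
The Hspe1 window (chr1:55088053-55088082, plus strand) and the Hspd1 window (the same bases, minus strand) held 2 overlapping elements, the first of them at positions -89 to -77 of Hspe1 and -144 to -132 of Hspd1. Both genes lie head to head, Hspd1 at chr1:55077835-55088243 on the minus strand and Hspe1 at chr1:55088132-55091307 on the plus strand. In GENCODE M21 these bases also fall in the 5′ untranslated first exon of transcript Hspd1-202. The Dnajb6 window is at chr5:29735843-29735872 on the plus strand, and its element lay at positions -46 to -34 from one RefSeq start and -127 to -115 from the other, inside the first exon of transcript Dnajb6-201. The 1 Hsph1 element lay after the start, at positions 15 to 27 from one RefSeq start and 36 to 48 from the other, and its bases are not given.

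A shorter element of 2 units, GAANNTTC or TTCNNGAA, which every 3-unit element contains, was found in 16 of the 58 members (27.6%) and in 17.0% of all genes. Hspa1a and Hspa1b, the stress-inducible Hsp70 genes, each held 1 at positions -104 to -97, and the 60 bases around it, with the element in capitals, were the same in both genes.
Hspa1a and Hspa1b: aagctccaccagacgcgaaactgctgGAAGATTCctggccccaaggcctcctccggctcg
This window is at chr17:34972227-34972286 for Hspa1a and at chr17:34959309-34959368 for Hspa1b, both on the minus strand. Over all 250 bases before the start, 247 (98.8%) were identical between both genes. The endoplasmic reticulum stress element was searched on both strands as CCAAT, any 9 bases and CCACG. The letters CCAAT alone were found in 43.1% of the 58 members and 41.1% of all genes. The whole element was found in 3 of the 58 members (5.17%), against 0.137% of all genes. Those 3 encode BiP (Hspa5), Grp94 (Hsp90b1) and p58IPK (Dnajc3), all of the endoplasmic reticulum lumen.
Hspa5: acttcaCCAATCGGAGGCCTCCACGacggg
Hsp90b1: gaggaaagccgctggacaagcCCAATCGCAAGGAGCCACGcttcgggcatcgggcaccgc
Dnajc3: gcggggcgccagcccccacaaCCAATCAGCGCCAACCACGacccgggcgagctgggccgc
The Hspa5 window is at chr2:34772019-34772048 on the plus strand, and its element lay at positions -65 to -47, inside the first exon of transcript Hspa5-201. The Hsp90b1 window (chr10:86705618-86705677, minus strand) shows the first of 2 elements, at positions -212 to -194, and the Dnajc3 window (chr14:118937806-118937865, plus strand) shows its 1 element, at positions -105 to -87. The letters TATAAA were found in 4 of the 58 members and in 15.7% of all genes. A match describes exact letters in this window, elements that depart from them were not searched, and binding was not measured.

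A gene was called detected at 1 TPM or more in both libraries. By this measure 61 of 72 members were detected (84.7%), against 57.7% of all protein-coding genes. The median level of all 72 members, as the mean of both libraries, was 18.6 TPM, and it was 18.7 TPM in replicate 2 and 18.5 in replicate 1. The median over all protein-coding genes was 3.23 TPM. Among detected genes alone, it was 24.1 TPM for the 61 members and 14.7 TPM for protein-coding genes. At a mean of 100 TPM or more stood 9 members, 39 lay between 10 and 100 TPM, and 13 between 1 and 10 TPM.

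The members together held 0.972% of the TPM of nuclear protein-coding genes in replicate 2 and 1.01% in replicate 1. Their RNA was concentrated in few genes. Hspa8, Hsp90ab1 and Hsp90aa1 supplied 47.0% of the members' summed TPM in replicate 2 and 47.2% in replicate 1, and the 10 highest members supplied 67.4% and 67.8% in the same order. These 3 stood apart from each other and from the rest: no library of one overlapped a library of the next. Below them the order was less sharp. Of all 60 neighbouring pairs of detected members in order of level, 32 overlapped between libraries and 28 did not, so that Hsph1, for example, overlapped both Hsp90b1 above it and Dnajc6 below it.

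**Figure D1:**
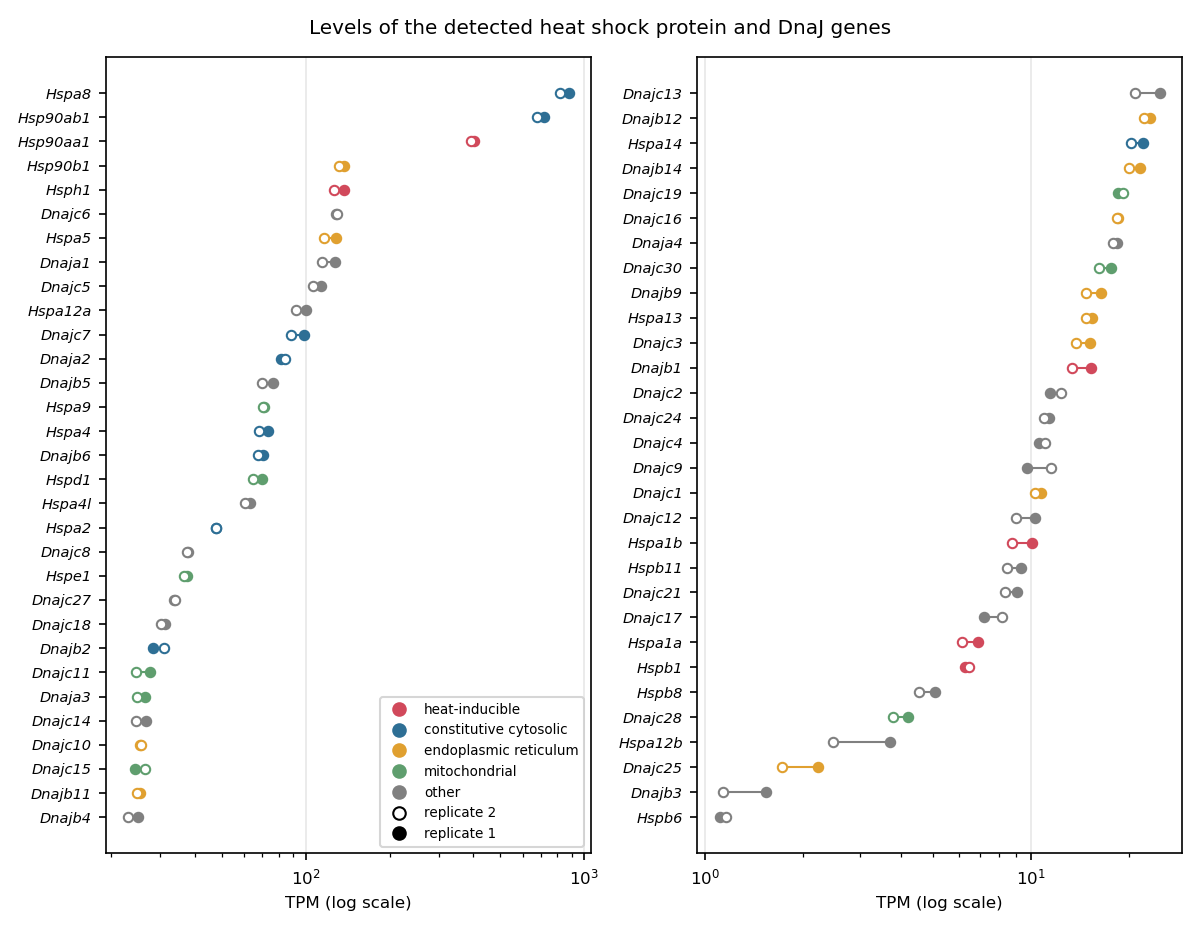
Level of each of the 61 detected members in TPM on a log scale, with an open circle for replicate 2 and a filled circle for replicate 1 joined by a line, ordered by the mean of both. Hspa8 and Hsp90ab1 lie highest, the inducible Hspa1b and Hspa1a lie near or below 10 TPM, and the widest lines belong to low members such as Hspa12b.

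The 9 constitutive chaperones of the cytosol held 47.4% of the members' summed TPM in replicate 2 and 47.7% in replicate 1, and the 6 heat-inducible chaperones held 13.8% and 13.7% in the same order. Hspa8 (Hsc70, the constitutive Hsp70, at chr9:40800984-40810087) had 814 TPM in replicate 2 and 877 in replicate 1, a mean of 846 ± 44.7 TPM (SD, n = 2). Hsp90ab1 (Hsp90β, the constitutive Hsp90, at chr17:45567775-45573271) had 678 TPM in replicate 2 and 719 in replicate 1. The other constitutive members ranged lower, and none of them was 1.2-fold apart in TPM between the libraries. Hspa4 (Apg-2, an Hsp110 nucleotide exchange factor of Hsp70) had 67.8 and 73.1 TPM in replicates 2 and 1, and Hspa2, an Hsp70 best known for its role in spermatogenesis, had 47.6 TPM in each. Hspa14, which with Dnajc2 forms the ribosome-associated chaperone complex, had 20.3 and 22.1 TPM in replicates 2 and 1.

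Among constitutive DnaJ partners, Dnajc7 (Tpr2, which binds both Hsp70 and Hsp90) had 88.9 TPM in replicate 2 and 98.6 in replicate 1. Dnaja2, a general Hsp70 co-chaperone, had 84.1 and 81.9 TPM in replicates 2 and 1. Dnajb6, which suppresses polyglutamine aggregation, had 67.4 and 70.5 TPM, and Dnajb2 (Hsj1, a DnaJ protein enriched in neurons) had 31.1 and 28.4 TPM, again in replicates 2 and 1. By TPM, Dnajb2 and Dnaja2 were the members of this list of 9 that were higher in replicate 2. With TMM factors these were Dnajb2, Hspa2 and Hspa14, and with spike-in totals all 9 were lower. The list's median level was 70.4 TPM.

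The 6 heat-inducible chaperones were not uniformly low. Their median level was 11.9 TPM, against 70.4 TPM for the 9 constitutive members. Hsp90aa1 (Hsp90α, the inducible Hsp90, at chr12:110690605-110702728) had 391 TPM in replicate 2 and 403 in replicate 1, a mean of 397 ± 8.57 TPM (SD, n = 2). Hsph1 (Hsp105, an inducible Hsp110, at chr5:149614287-149636376) had 127 and 137 TPM in replicates 2 and 1. Each exceeded 7 of the 9 constitutive members in both libraries. In the wider inducible list, Hspa4l (Apg-1, another Hsp110) had 60.7 and 63.1 TPM, and Dnajb4 had 23.1 and 25.1 TPM, in replicates 2 and 1.

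The other 4 inducible members were low but detected in both libraries. Dnajb1 (Hsp40, the main heat-inducible DnaJ protein) had 13.3 TPM in replicate 2 and 15.3 in replicate 1. Hspa1b (chr17:34956436-34959238) had 8.72 TPM from 545 expected counts in replicate 2 and 10.1 from 612 counts in replicate 1. Hspa1a (chr17:34969190-34972156) had 6.15 TPM from 408 counts in replicate 2 and 6.88 from 443 counts in replicate 1. Both genes lie on the minus strand, 9951 bases apart, and share much of their sequence: 68.0% of the 31-base words of Hspa1b and 65.4% of those of Hspa1a occur in other genes too. The split between them is therefore uncertain, and their sum was used for the comparison with Hspa8 below. Hspb1 (Hsp25, the stress-inducible small heat shock protein) had 6.46 TPM in replicate 2 and 6.28 in replicate 1, with 52.3% of its words shared with the pseudogene Hsp25-ps1.

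Setting the inducible genes other than Hspb1 against a member of the constitutive list gave a different picture in each subfamily. Hspa1a and Hspa1b summed to 14.9 TPM in replicate 2 and 17.0 in replicate 1, which was 1.83% and 1.93% of the Hspa8 level. Hsp90aa1 stood at 57.7% of Hsp90ab1 in replicate 2 and 56.1% in replicate 1. The direction was turned round for the Hsp110 proteins, since Hsph1 was 1.87-fold higher than Hspa4 in replicate 2 and 1.88-fold higher in replicate 1. Dnajb1 stood at 19.8% of Dnajb6 in replicate 2 and 21.7% in replicate 1. Of this pair it was Dnajb6, from the constitutive list, whose promoter held the exact letters of the longer heat shock element. The exact letters of neither form were found in the Dnajb1 windows. Elements that depart from these letters were not searched, so this does not show that Dnajb1 lacks a heat shock element. In all 4 comparisons the libraries did not overlap.

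These ratios were also computed from the second quantification, made directly from the reads. The Hsp70 ratio hardly moved, at 1.79% in replicate 2 and 1.88% in replicate 1, and Hsph1 was 1.91-fold and 2.03-fold higher than Hspa4 in the same order. For the Hsp90 genes the ratio was 85.8% in replicate 2 and 81.7% in replicate 1. Hspa8 also shares 43.5% of its words with other genes, chiefly with the processed pseudogene Gm15459 on chromosome 5, which was listed at 220 TPM in replicate 2 and 227 in replicate 1. With that pseudogene added, Hspa8 came to 1034 and 1105 TPM in replicates 2 and 1.

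Members of the endoplasmic reticulum were abundant at the top and moderate below it. Hsp90b1 (Grp94, the Hsp90 of the lumen) had 131 TPM in replicate 2 and 137 in replicate 1, and Hspa5 (BiP, the Hsp70 of the lumen) had 116 and 128 TPM in replicates 2 and 1. Hspa5 was thus 88.6% and 93.7% of Hsp90b1 in replicates 2 and 1, but 109% and 111% in the second quantification, so their order depended on the quantification. Dnajc10 (ERdj5, a disulfide reductase) had 25.6 and 25.5 TPM, and Dnajb11 (ERdj3, a BiP co-chaperone) had 24.8 and 25.4 TPM, in replicates 2 and 1. Dnajc3, which holds the stress element shown above, had 13.7 and 15.2 TPM, and Dnajb9 (ERdj4, a BiP co-chaperone in protein degradation) had 14.8 and 16.4 TPM, in replicates 2 and 1. Dnajc25 was lowest of the 12 members, at 1.72 and 2.23 TPM in replicates 2 and 1. The median of the 7 lumenal members that the unfolded protein response can raise was 25.1 TPM.

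The 9 mitochondrial members had a median of 25.7 TPM. Hspa9 (mortalin, the mitochondrial Hsp70 that drives protein import) had 70.5 TPM in replicate 2 and 71.1 in replicate 1. Hspd1 (Hsp60) had 64.7 and 70.0 TPM in replicates 2 and 1, and its lid, Hspe1 (Hsp10), had 36.7 and 37.5 TPM, which was 56.7% and 53.6% of Hspd1. Those shares were 80.1% and 75.0% in the second quantification. Hspd1 and Hspe1 overlap by 112 bases on opposite strands, and 50.1% of the words of Hspd1 are shared, mostly with Hspd1-ps3. Dnaja3 (Tid1, a co-chaperone of mortalin) had 24.8 TPM in replicate 2 and 26.6 in replicate 1, and Dnajc28 was lowest at 3.78 and 4.21 TPM in the same order.

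Dnajc6 and Dnajc5, DnaJ proteins of vesicles, had the highest levels of class C. Dnajc6 (auxilin, which with Hsc70 uncoats clathrin-coated vesicles) had 130 TPM in replicate 2 and 129 in replicate 1. Dnajc5 (CSPα, a synaptic vesicle protein) had 106 and 114 TPM, and Dnajc13 (RME-8, an endosomal protein) had 20.8 and 24.9 TPM, in replicates 2 and 1. Dnaja1 (Hdj2, a farnesylated general co-chaperone of Hsp70) had 114 and 127 TPM in replicates 2 and 1, which was 1.36-fold and 1.55-fold higher than its relative Dnaja2. Hspa12a, a distant Hsp70 relative, had 92.3 TPM in replicate 2 and 100.1 in replicate 1, while its paralog Hspa12b, known from endothelial cells, stood at 2.69% and 3.71% of that level.

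The 5 members of the spliceosome, ribosome and nucleus had a median of 10.6 TPM. Dnajc8, a splicing-associated protein, led them with 37.6 TPM in replicate 2 and 37.9 in replicate 1. Dnajc2 (zuotin-related factor, a ribosome-associated DnaJ protein) had 12.3 and 11.4 TPM, Dnajc9 (a histone chaperone) 11.5 and 9.71 TPM, Dnajc21 (a ribosome biogenesis factor) 8.30 and 9.06 TPM, and Dnajc17 (a splicing-associated protein) 8.15 and 7.17 TPM, each in replicates 2 and 1. Outside all the compartment, family and other lists, Dnajb5 had the highest level, 69.8 TPM in replicate 2 and 76.2 in replicate 1. Of the others outside those lists, the detected Dnajc27, Dnajc18, Dnajc14, Dnajc24, Dnajc4 and Dnajc12 ranged in mean level over both libraries from 9.63 TPM for Dnajc12, a co-chaperone of aromatic amino acid hydroxylases, to 33.8 TPM for Dnajc27. Hspb11, which carries a heat shock symbol but is the intraflagellar transport protein Ift25, had 8.43 and 9.34 TPM in replicates 2 and 1.

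Of 72 members, 11 were not detected, and they came mainly from 2 groups. Of 7 small heat shock proteins 3 were detected, namely Hspb1, Hspb8 (Hsp22, a partner of Bag3), at 4.54 TPM in replicate 2 and 5.08 in replicate 1, and Hspb6 (Hsp20), at 1.16 and 1.11 TPM. The muscle-associated Hspb2 had 0.62 and 0.32 TPM, Hspb3 0.57 and 0.26 TPM, and Hspb7 0.03 and 0.05 TPM, in replicates 2 and 1. Of Hspb2's exon bases 30.2% overlap the opposite-strand gene Cryab (αB-crystallin), which was not a member and was itself detected, at 45.9 TPM in replicate 2 and 47.8 in replicate 1.

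Of 8 members known from testis or cilia only Dnajb3 was detected, at 1.14 TPM in replicate 2 and 1.54 in replicate 1. Hspa1l, the testis Hsp70 gene 546 bases from Hspa1a, had 0.08 and 0.18 TPM in replicates 2 and 1, and 71.9% of its exon bases overlap the antisense gene Gm10501. Dnajb13 had 0.10 and 0.16 TPM in replicates 2 and 1. Hspb9 had 0.07 TPM in replicate 2 and was at 0 in replicate 1. Dnajc5b, Dnajb8, Dnajc5g and Dnajb7 had no count in either library. For Dnajb7 a count of 0, which allows up to 3 counts, corresponded to at most 0.102 TPM in replicate 2 and 0.105 in replicate 1, a limit for counting error only. Dnajc22, which is in no list, was the last member not detected, with 0.06 TPM in replicate 2 and 0 in replicate 1. Whether strand was used in counting is not given in the sources used here, so for the 25 members with an opposite-strand overlap the reads of both strands may not be told apart.

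The difference between libraries was measured as the log2 ratio of TPM, replicate 2 over replicate 1, for genes with at least 50 expected counts in both. Of 72 members 59 passed, and the ratio has no replicate check, since each side is 1 library. The median log2 ratio was -0.10 for these members and -0.04 for all 13916 genes that passed. The ratio was below 1 for 47 of 59 members (79.7%), against 62.6% of all genes. At least 1.2-fold lower were 2 of 59 members (3.39%), against 10.7% of all genes, and at least 1.2-fold higher were 0 of 59, against 4.93% of all genes. Many members were thus slightly lower in replicate 2, and few passed 1.2-fold. Among detected genes the median was 24.1 TPM for members and 14.7 TPM for protein-coding genes, and the background was not matched for level. Counting error is smaller at higher counts, and its part in these shares was not tested. On counts scaled with TMM factors 1 member (Dnajc25) was at least 1.2-fold lower, against 4.46% of all genes, and 1 (Dnajc17) at least 1.2-fold higher, against 4.25%. With DESeq2 size factors these counts were again 1 and 1, against 4.6% and 4.1% of all genes, and on the log2(TPM + 1) scale 1 member (Hspa12b) was at least 1.2-fold lower, against 6.78% of all genes.

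**Figure D2:**
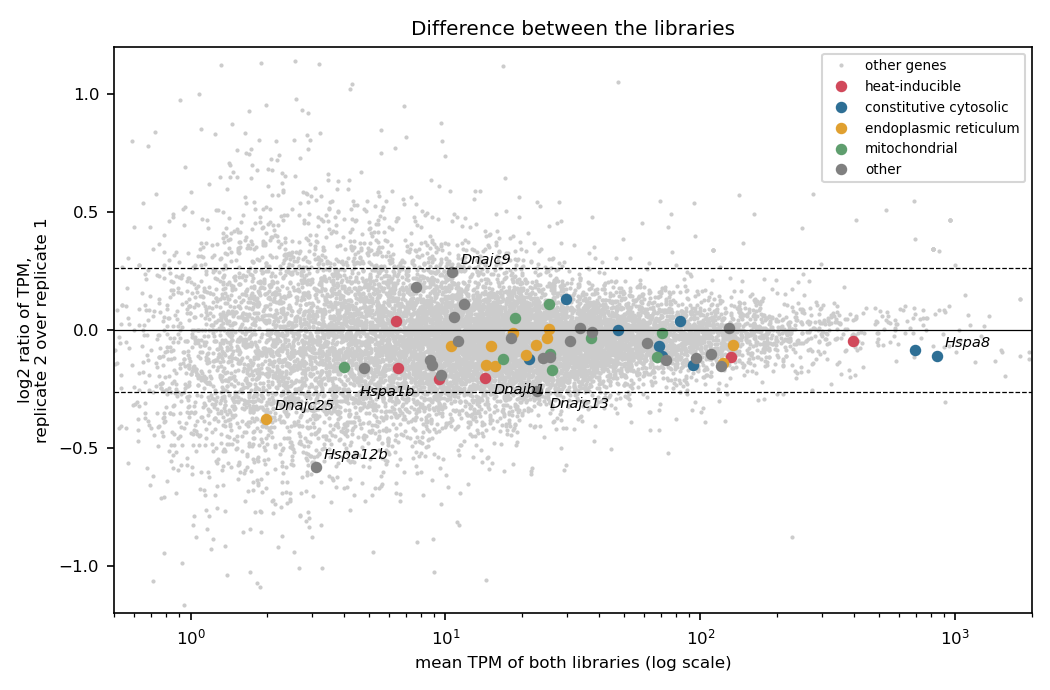
Log2 ratio of TPM, replicate 2 over replicate 1, against mean TPM on a log scale, for genes with 50 counts in both libraries; genes past the axis limits are not drawn. Large points are members, coloured by list, grey dots are other genes, and dashed lines mark 1.2-fold. Most members lie just below 0, and Hspa12b and Dnajc25 lie past the lower line.

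The size of this shift depended on how the libraries were scaled. With TMM factors the median log2 ratio was -0.05 for members and 0.00 for all genes, and 39 of 59 members were below 1, against 49% of all genes. With totals of the spike-in RNAs the medians were -0.11 for members and -0.06 for all genes, and 53 of 59 members were below 1, against 70.3% of all genes. In the second quantification they were -0.06 and -0.02, with 42 of 59 members below 1 and a background of 56.1%. The median of the members minus that of all genes ranged from -0.04 in the second quantification to -0.06 for TPM.

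The inducible list had a slightly lower median ratio than the constitutive list. The inducible list counts Hspa1a and Hspa1b as 2 members although their split is uncertain. Their summed TPM had a log2 ratio of -0.19, and a list median with the sum as 1 member was not computed. The median log2 ratio was -0.14 for the 6 inducible members, with 5 of 6 below 1, and -0.09 for the 9 constitutive members, with 7 of 9 below 1, against 62.6% of all genes. With TMM factors the medians were -0.10 and -0.01 in the same order, with 5 of 6 and 6 of 9 below 1, against 49% of all genes. With spike-in totals 5 of 6 inducible and 9 of 9 constitutive members were below 1, against 70.3% of all genes. In the second quantification 4 of 6 and 5 of 9 were below 1, against 56.1% of all genes. For TPM, single inducible members had log2 ratios of -0.21 for Hspa1b, -0.20 for Dnajb1, -0.16 for Hspa1a, -0.11 for Hsph1, -0.04 for Hsp90aa1 and 0.04 for Hspb1. Those of Hspa8 and Hsp90ab1 were -0.11 and -0.09. The second quantification changed the sign for Hsph1 (0.02), Hsp90aa1 (0.01) and Hspb1 (-0.18), while Hspa1b, Dnajb1 and Hspa1a stayed below 0. In a wider inducible list, which also holds Hspa8 of the constitutive list, 11 of 12 genes were below 1 and the median was -0.11.

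**Figure D3:**
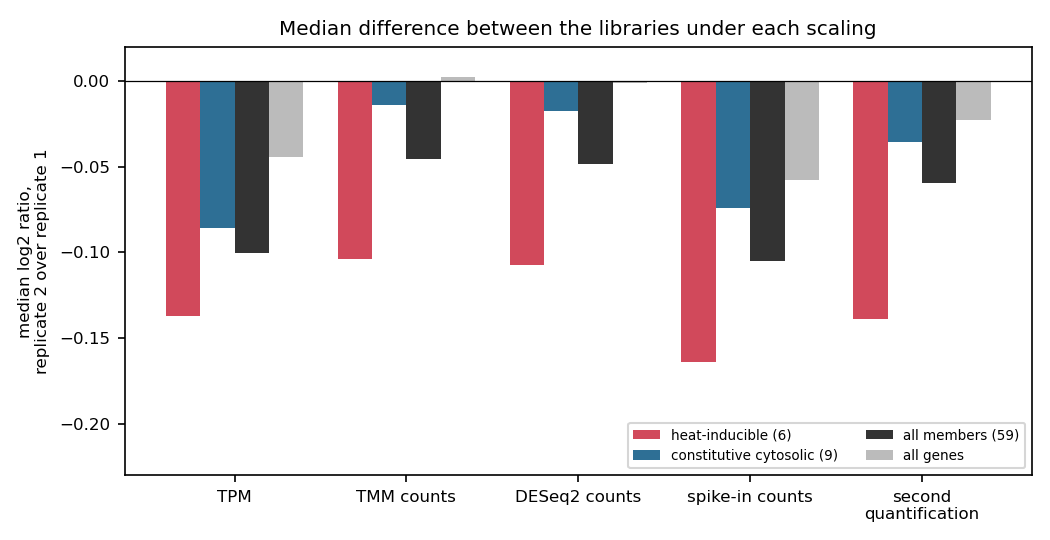
Median log2 ratio, replicate 2 over replicate 1, of the heat-inducible members, the constitutive cytosolic members, all 59 members with enough counts and all genes, under 5 ways of scaling. Hspa1a and Hspa1b count as 2 of the inducible members. The inducible bar is the lowest in every group, from -0.10 with TMM factors to -0.16 with spike-in totals, and the bar of all genes is nearest to 0. TMM, DESeq2 and spike-in scaling divide the same counts by a single factor per library. The order of the bars is therefore the same in these groups by construction, and they do not count as separate evidence.

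Other gene groups were also compared between the libraries. Immediate early genes are raised within minutes by activity and handling. Of 9 with 50 counts in both libraries, 8 were higher in replicate 2 (median log2 ratio 0.37) and 1 was lower, against 62.6% of all genes lower. The summed level of all 10 listed was 132 TPM in replicate 2 and 105 in replicate 1. Of 6 oligodendrocyte markers 4 were lower in replicate 2, near the 62.6% of all genes. Their sums were 903 TPM in replicate 2 and 1005 in replicate 1. Their median log2 ratio was -0.15 for TPM and -0.06 with TMM factors. All 5 red blood cell markers had higher TPM in replicate 2, with sums of 420 and 377 TPM in replicates 2 and 1. The part of these groups in the members' ratios was not tested.

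By compartment, 13 of 13 Hsp70 and Hsp110 members with enough counts were below 1, with a median log2 ratio of -0.11, and so were 3 of 3 Hsp90 members, with a median of -0.06, against 62.6% of all genes. With TMM factors the Hsp70 and Hsp110 count was 10 of 13, against 49% of all genes. Of the 12 endoplasmic reticulum members 11 were below 1 for TPM and 8 with TMM factors, and of the 9 mitochondrial members 7 were below 1 for TPM and 5 with TMM factors, the last of these near the 49% of all genes. The spliceosome, ribosome and nuclear list had a median log2 ratio of 0.11 for TPM, 0.01 with TMM factors and -0.05 with spike-in totals, with 2, 2 and 3 of 5 members below 1 in that order.

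Hspa12b (chr2:131127280-131146321) was one of the 2 members past 1.2-fold. It had 2.48 TPM from 190 counts in replicate 2 and 3.71 from 225 counts in replicate 1, for a log2 ratio of -0.58 and a counting interval of -0.87 to -0.30. The short transcript Hspa12b-202 was at 0 TPM in replicate 2 and 0.82 in replicate 1, while the long Hspa12b-201 had 2.48 and 2.89 TPM. On counts scaled with TMM factors the log2 ratio was -0.24, under 1.2-fold. Of 6 endothelial and mural markers 1 was lower in replicate 2, and their sum was 53.4 TPM in replicate 2 and 50.3 in replicate 1.

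Dnajc25 (chr4:58995062-59025573), a DnaJ protein of the endoplasmic reticulum membrane, was the other. Its 1.72 TPM in replicate 2 and 2.23 in replicate 1 rested on 99.3 and 139 counts, and the log2 ratio was -0.37 with an interval of -0.77 to 0.004. The gene Gm20503 overlaps it on the same strand by 348 exon bases and was listed at 1.22 TPM in replicate 2 and 0 in replicate 1. When both genes were added, the TPM ratio was 0.40 and the count ratio -0.06 on the log2 scale, so the direction turned with the split of reads between them. In the second quantification Gm20503 had 15.7 TPM in replicate 2 and 14.3 in replicate 1, and the summed log2 ratio was 0.03. Just short of 1.2-fold lay Dnajc13, at -0.26 for TPM but -0.05 with TMM factors, and Dnajc9, at 0.25 for TPM but -0.06 in the second quantification.

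The transcripts of the members were mostly coding. Among the 56 detected members with more than 1 annotated transcript, the median share of a gene's TPM in protein-coding transcripts was 92.4% in replicate 2 and 91.4% in replicate 1, against 87.1% and 86.2% for detected protein-coding genes. Retained-intron transcripts had a median share of 2.34% in replicate 2 and 2.36% in replicate 1 among members, against 3.68% and 4.21% among those genes. The transcript with the highest level was the same in both quantifications for 41 of 56 members (73.2%), against 75.5% of 11502 genes.

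Some of the highest members were among those whose transcripts the quantifications placed differently. For Hspa8 the first quantification gave most to Hspa8-202, with 44.9% in replicate 2 and 44.3% in replicate 1. The second gave that transcript 0.265% and 0.192%, and put 75.2% and 72.5% in Hspa8-201, in replicates 2 and 1. Both transcripts are coding. A short coding transcript of Hsp90aa1, 481 bases long, had 1.65% and 1.32% of the gene's TPM in the first quantification and 49.3% and 46.5% in the second, in the same order. The full-length Hsp90aa1-201 had 292 TPM in replicate 2 and 306 in replicate 1 in the first, and 501 and 523 TPM in the second.

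Retained introns took a sizeable share of a few members. In Hsph1 they held 26.7% of the gene's TPM in replicate 2 and 26.3% in replicate 1, and 20.2% and 19.7% in the second quantification. In Dnaja2 the 507-base retained-intron transcript Dnaja2-202 held 44.4% in replicate 2 and 37.8% in replicate 1, and 59.2% and 56.1% in the second. With protein-coding transcripts alone, Dnaja2 had a log2 ratio of -0.12, below 0, where the whole gene had 0.04. In the constitutive list the sign also turned for Dnajc7 (-0.15 to 0.12) and Hspa14 (-0.12 to 0.07), and it turned for some members outside that list. Retained introns held 31.3% of the TPM of Hspa14 in replicate 2 and 39.9% in replicate 1. In Hspa5 the shares were 1.55% and 2.38% in the first and 25.5% and 23.2% in the second, in replicates 2 and 1. Dnajc15 (Mcj, a mitochondrial import protein) had 29.8% and 33.8% of its TPM in its coding transcript in the same order.

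**Figure D4:**
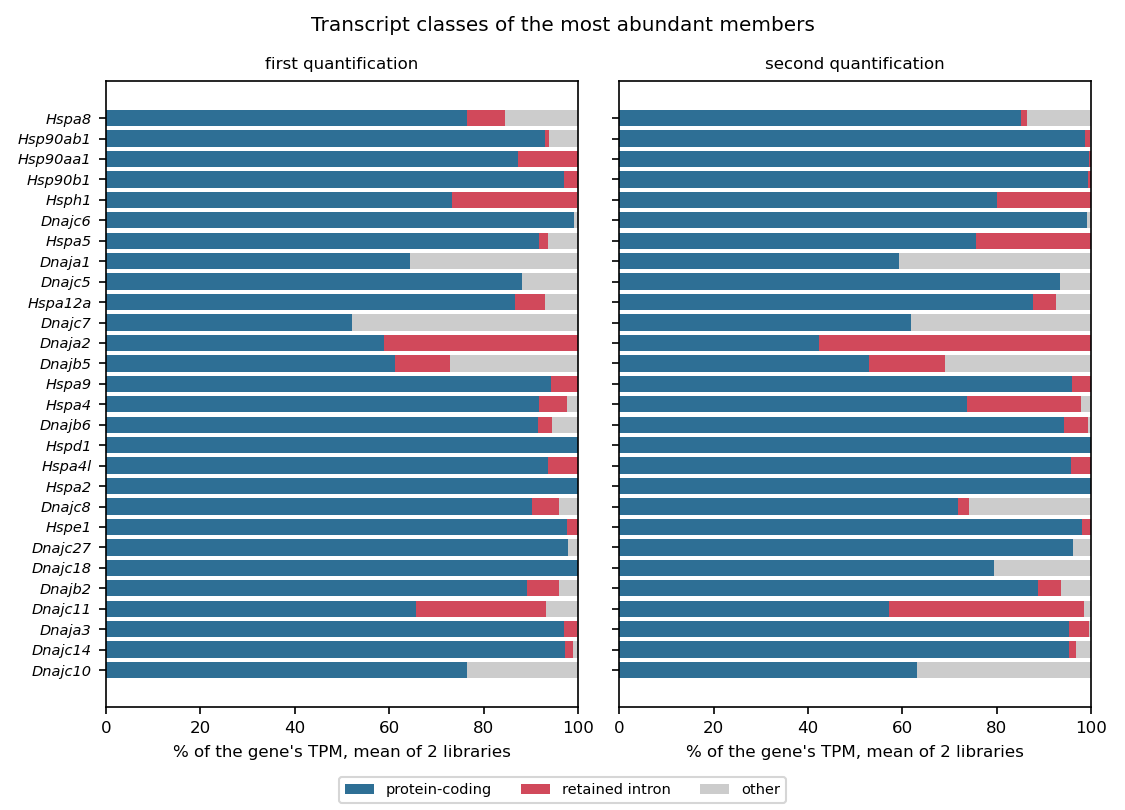
Share of each gene's TPM in protein-coding, retained-intron and other transcripts, as the mean of both libraries, for the most abundant members with the first quantification left and the second right. Hsph1 and Dnaja2 have large retained-intron shares in both, while that of Hspa5 is large in the second alone.

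The wider heat shock pathway was described by 38 genes that are not members, among them the heat shock factors, the Bag nucleotide exchange factors, Hsp90 cochaperones and DnaJ proteins with other names. Of these 36 were detected, with a median level of 32.9 TPM over all 38. Those with 50 counts in both libraries also numbered 36, and their median log2 ratio was -0.03, with 24 of 36 below 1, against 62.6% of all genes. At least 1.2-fold lower were 3 of 36, against 10.7% of all genes, and at least 1.2-fold higher was 1 of 36, against 4.93%. These counts lay near those of all genes. Hsf1, the factor that binds heat shock elements, had 24.7 TPM in replicate 2 and 32.9 in replicate 1, with a log2 ratio of -0.41. Sec63, the DnaJ partner of BiP at the translocon, had 16.7 and 20.8 TPM (-0.32, and -0.01 with TMM factors), and Serpinh1 (Hsp47, a collagen chaperone) had 6.99 and 8.43 TPM (-0.27), in replicates 2 and 1. Hscb, a DnaJ protein of iron-sulfur cluster assembly, had 6.30 TPM in replicate 2 and 4.61 in replicate 1, with a log2 ratio of 0.45.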

How the data were processed

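The 2 libraries were total RNA-seq of mouse hippocampus, quantified on mm10 with GENCODE M21 per the deposited text listings. The authors deposited, per the file headers, an expected count (estimated reads, not always whole) and a TPM value (per length, scaled over all entries with spike-ins) for each gene and transcript, in the RSEM layout, from a transcriptome alignment. A second transcript quantification with estimated counts and TPM, deposited in the kallisto layout, came straight from the reads. Which programs ran was not given in the sources used here. Reads of the CAST/EiJ haplotype, too, could be matched only to the C57BL/6J reference.

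Members and lists were chosen with earlier results of these data known. Levels are TPM, and detected means 1 TPM in both libraries. Log2 ratios (replicate 2 over replicate 1) used genes with 50 counts in both, with a 1.2-fold threshold. The 95% counting intervals come from the counts, are moved to the TPM ratio and cover counting error only. Named with values were all members of the inducible and constitutive lists, the 10 highest, those past 1.2-fold, and up to 4 highest and the lowest of other lists; further members were named after their values were seen. With 2 libraries of 1 group no test was made. Scaling alternatives used edgeR 4.0.16 (TMM), DESeq2 1.42.0 size factors and spike-in totals in R 4.3.3, and the rest Python 3.11.15. The ratio script was tested on simulated data. Shared sequence was counted in 31-base words of GENCODE transcripts.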

Additional observations from a re-analysis of the deposited data

How the results depend on the processing

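Of the summary results, 60 values under other settings stayed within their spread or within 1.5 times the count, and 13 did not. Some of the 60 were bound to stay. The spread of a median level was the SD of the 2 library medians, so leaving a library out fell within it. All members of the inducible and constitutive lists were detected, so keeping only detected members left those medians unchanged. The median level of all members was 36.4 TPM in the second quantification, 44.7 TPM when TPM was rescaled over nuclear protein-coding genes, and 24.1 TPM over detected members. That of the inducible list was 17.5 and 28.5 TPM, and that of the constitutive list 135 and 169 TPM, in the second quantification and after rescaling. Members at least 1.2-fold lower numbered 1 with TMM factors, 1 with DESeq2 size factors and 1 on log2(TPM + 1). Members at least 1.2-fold higher numbered 1 with TMM factors, 1 with DESeq2 size factors and 2 with protein-coding transcripts alone, an alternative chosen after seeing the data. The log2 ratio of Dnajc25 was 0.40 when summed with Gm20503, also chosen afterwards. The cause of these differences was not tested. With either library left out, the median level stayed between 18.5 and 18.7 TPM. A ratio needs both libraries, so none was computed with one left out. No paired analysis was possible because the 2 libraries form 1 group. Depth limited the 13 members under 50 counts, whose ratios were not read.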
